A study of Mus musculus with 3 samples.

Results

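The 9 genes described here encode proteins at the top of insulin and insulin-like growth factor (IGF) signaling in mouse: the IGF binding proteins Igfbp2, Igfbp3, Igfbp4 and Igfbp5, the receptors Igf1r and Insr, and the insulin receptor substrates Irs1, Irs2 and Irs4. They were taken from the 32285 genes counted in 3 single-cell libraries, 1 per culture, and all 9 passed the filter on low values, a mean of at least 1 CPM (counts per 1000000 UMIs). The genes were chosen from earlier values of these same libraries, which differed between lineages, cultures or groups of cells. Their levels are therefore given as a description and no test is made of them. With 1 library per culture no test between cultures was possible, and every interval below is a 95% interval that covers counting error only. Intervals of levels, ratios and shares are exact, and those of log2 ratios with 5 CPM added are approximate.

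The cultures were BELAs, VE cysts and Epi cysts, all grown from iGATA embryonic stem cells, an E14tg2a derivative that carries a doxycycline-inducible Gata4-mCherry transgene and, for BELAs and VE cysts, was used as a single clone. BELAs are bilayered embryo-like aggregates in which cells with visceral endoderm (VE) identity surround an epiblast-like (Epi) core. For them the cells received doxycycline at 0.5 µg/ml for 8 h in 2i + LIF medium, then 16 h in N2B27, and were seeded at 30000 cells per cm2 and kept for 3 days in N2B27. VE cysts received the same pulse and then a further 16 h of doxycycline in N2B27 with FGF4 at 10 ng/ml and heparin at 1 µg/ml, and FGF4 and heparin were kept during the 3 days of culture. Epi cysts were grown embedded in matrigel, 1 day in 2i + LIF and 3 days in N2B27, with no doxycycline stated. About 200 BELAs and 200 VE cysts were picked by hand and pooled, and VE cysts with a visible Epi-like core were left out, so each library is a pool of structures rather than an individual one. The N2 and B27 supplements of N2B27 contain insulin, and all 3 cultures were grown in this medium.

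Cells were kept with at least 4000 detected genes and at most 10% mitochondrial unique molecular identifiers (UMIs). A cell was called VE when its summed UMIs of Gata6, Sox17, Dab2 and Cubn exceeded those of Pou5f1, Sox2, Nanog and Fgf4, and Epi otherwise. This gave 542 VE and 868 Epi cells in BELAs, 577 VE and 48 Epi cells in VE cysts, and 656 Epi cells and 1 VE cell in Epi cysts. The VE cells of BELAs were divided further into 72 cells with Sfrp1 at 200 CPM or more, called Sfrp1-high, and 470 other VE cells. Sfrp1 encodes a secreted Wnt antagonist of the anterior visceral endoderm (AVE), the signaling centre that patterns the epiblast. Levels are the pooled UMIs of a gene in a group of cells, divided by all UMIs of that group and given as CPM. They are not scaled to transcript length and are therefore compared only within a gene.

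IGF1, IGF2 and insulin bind the receptor tyrosine kinases encoded by Igf1r and Insr, and the activated receptors phosphorylate IRS adaptor proteins, which recruit phosphoinositide 3-kinase (PI3K) and so activate AKT. IGF binding proteins are secreted proteins that hold IGFs in the extracellular space, limiting or prolonging their access to the receptor, while binding insulin poorly. In the mouse embryo the extraembryonic endoderm is a source of IGF2, and IGF signaling is known for its role in embryonic growth.

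In the GRCm38 (mm10) annotation all 9 are protein-coding genes. Igfbp2 (chr1:72824503-72852474, plus strand) and Igfbp5 (chr1:72857932-72874884, minus strand) lie tail to tail with a gap of 5457 bp between their ends. Igfbp3 (chr11:7206086-7213923, minus strand) and Igfbp4 (chr11:99041244-99054392, plus strand) lie apart on chromosome 11. Igf1r is at chr7:67952827-68233668 on the plus strand and Insr at chr8:3122061-3279617 on the minus strand. Of the substrates, Irs1 is at chr1:82233101-82291416, Irs2 at chr8:10984681-11008458 and Irs4 at chrX:141710998-141725263, all on the minus strand. No member overlapped another gene on its own strand, whereas Insr, Irs1, Irs2 and Irs4 each overlapped a gene annotated on the other strand. The sources used here do not state how the counting treated strand, so reads of these 4 genes and of their antisense neighbours are not certain to be separated.

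The regions upstream of RefSeq starts of Igfbp2, Igfbp5 and Irs4 are shown because these genes had the largest ratios of the 9 in the comparisons described below. Each is the 250 bases before a RefSeq start of the gene, from GRCm38.p6, written 5′ to 3′ on the strand of the gene, with CpG dinucleotides in capitals. The window of Igfbp2 is chr1:72824230-72824479 (plus strand), that of Igfbp5 chr1:72874866-72875115 (minus strand) and that of Irs4 chrX:141725218-141725467 (minus strand). The windows of Igfbp5 and Irs4 overlap the gene spans given above, which begin further upstream than these RefSeq starts.
Igfbp2: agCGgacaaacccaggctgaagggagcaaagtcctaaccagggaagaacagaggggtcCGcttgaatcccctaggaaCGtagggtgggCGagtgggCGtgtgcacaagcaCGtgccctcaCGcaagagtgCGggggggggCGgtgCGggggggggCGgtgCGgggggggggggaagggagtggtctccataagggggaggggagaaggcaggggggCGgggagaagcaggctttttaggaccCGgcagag
Igfbp5: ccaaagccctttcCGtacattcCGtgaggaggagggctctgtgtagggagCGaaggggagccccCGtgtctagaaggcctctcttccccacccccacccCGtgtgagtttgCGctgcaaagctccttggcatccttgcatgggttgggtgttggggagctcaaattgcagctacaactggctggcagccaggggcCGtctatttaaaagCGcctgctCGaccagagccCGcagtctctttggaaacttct
Irs4: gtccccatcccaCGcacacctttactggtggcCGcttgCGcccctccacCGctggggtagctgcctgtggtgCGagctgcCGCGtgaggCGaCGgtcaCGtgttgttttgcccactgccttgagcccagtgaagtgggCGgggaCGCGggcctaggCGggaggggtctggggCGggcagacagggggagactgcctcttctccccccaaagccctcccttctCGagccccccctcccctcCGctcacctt
The 3 windows held 14, 10 and 17 CpG dinucleotides in the order printed, against a median of 6 and an upper quartile of 16 over 32851 mouse promoters of the same length. RefSeq windows were matched for 8 of the 9 members, all but Insr. Igfbp2 had a second window, chr1:72825137-72825386 (plus strand) with 11 CpG dinucleotides, which is not printed. Both strands were searched for the string AGATAA of the GATA family of factors, found in 9.99% of all promoters, for TAATCC, which OTX2 and GSC bind (6.25%), for the LIM homeodomain string TAATTA (4.84%) and for the forkhead string GTAAACA (3.17%), and 0 of the members' windows held any of these strings.

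Median UMIs per kept cell were 82742 in BELAs, 58554 in VE cysts and 60160 in Epi cysts. The libraries shared 2 barcodes between BELAs and Epi cysts, 0 between BELAs and VE cysts and 1 between VE cysts and Epi cysts, none of them among kept cells. Of 6 VE genes that the lineage rule did not use (Foxa2, Amn, Lrp2, Hnf4a, Apoe, Gata4), the summed level was 7067 CPM in VE cells of BELAs and 6021 CPM in VE cells of VE cysts, against 780 CPM, 278 CPM and 280 CPM in Epi cells of BELAs, VE cysts and Epi cysts. The 5 further Epi genes (Utf1, Dppa4, Tdgf1, L1td1, Dnmt3b) summed to 769 and 279 CPM in VE cells of BELAs and VE cysts, against 2021, 1840 and 1337 CPM in Epi cells of BELAs, VE cysts and Epi cysts. Genes outside the rule thus followed both labels. The 5 streak and mesoderm markers summed to 61.9 CPM in Epi cells of Epi cysts and 10.2 CPM in Epi cells of BELAs. Of these, T (19.6 and 0.347 CPM in the same order) and Fgf8 (41.3 and 3.36 CPM) were higher in Epi cysts. Hand1 had the opposite order (0.0245 and 6.19 CPM). The part of these markers in differences of the members between Epi cells of BELAs and of Epi cysts was not tested. Markers of blood and endothelium (5 genes) summed to at most 10.1 CPM in any group. Those of fibroblasts (5 genes) reached 185 CPM in VE cells of VE cysts with Col1a1, Col1a2 and Thy1 under 1 CPM there. In BELAs 103 of 1410 kept cells had a smaller lineage sum above 10% of the larger, against 8 of 625 in VE cysts and 4 of 657 in Epi cysts. Close to the line between the labels, 1 VE cell and 40 Epi cells of BELAs had sums within 10 UMIs of each other.

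Of the 9 genes, the widest spread between groups of cells was that of Irs4, followed by Igfbp5 and Igfbp2, as the plot of levels by culture and lineage shows.

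**Figure D1:**
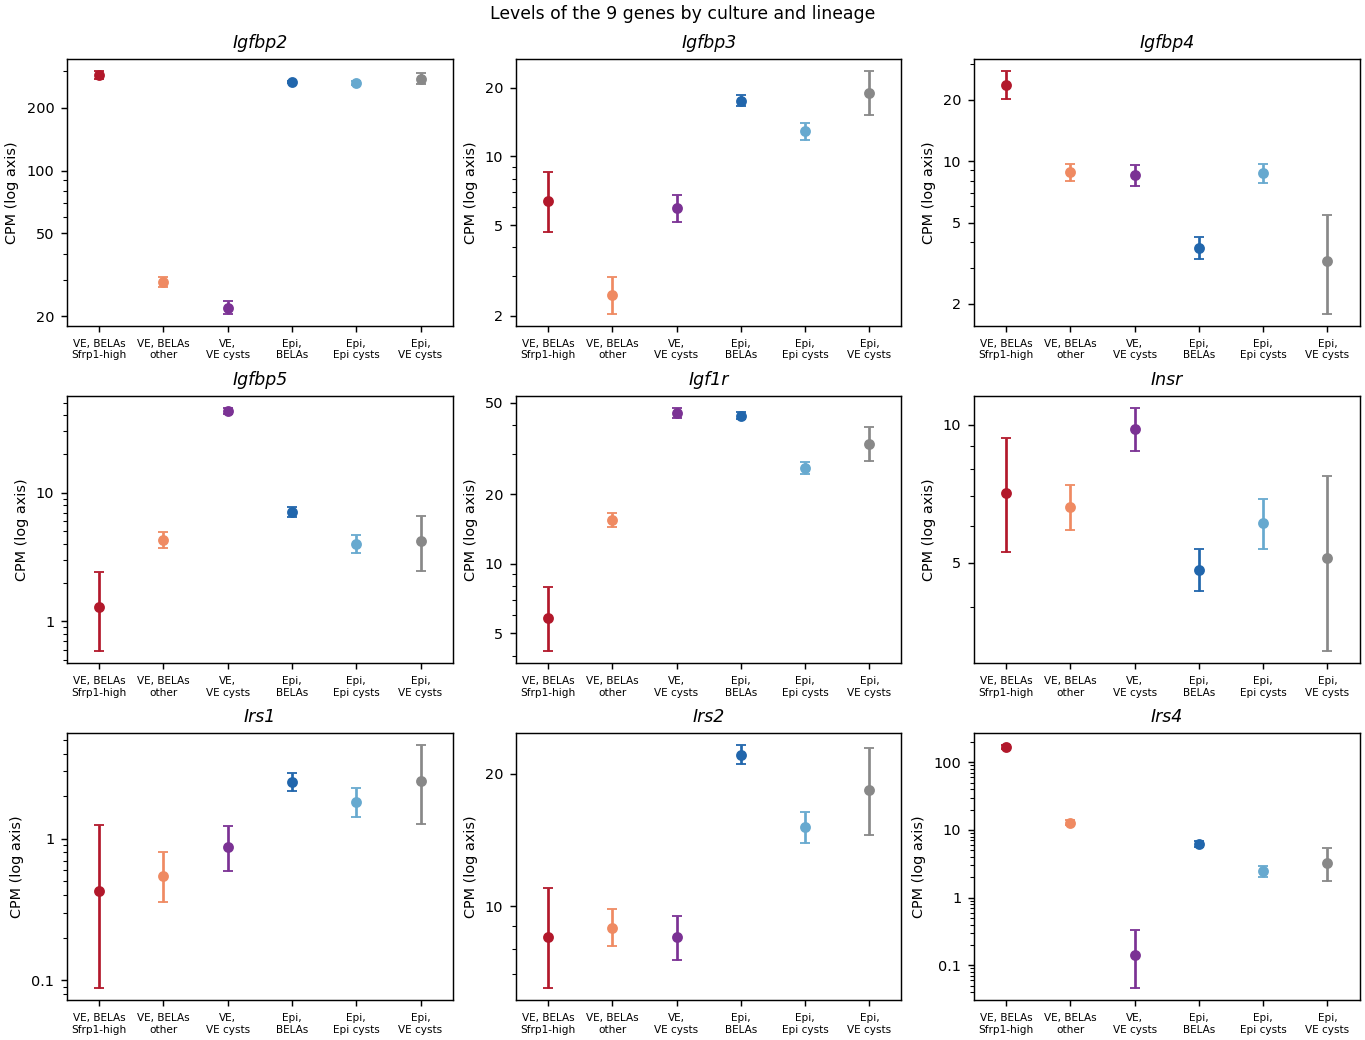
Levels (CPM, log axis, a separate scale for each gene) of the 9 genes in 6 groups of cells, with points at the pooled level and bars for the exact 95% Poisson interval. Irs4 stood at 168 CPM in Sfrp1-high VE cells and 0.141 CPM in VE cells of VE cysts, Igfbp2 was low in the VE cells outside the Sfrp1-high group, and Igfbp5 was high in VE cells of VE cysts alone.

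Among the binding proteins, Igfbp2 was mainly an Epi transcript that the Sfrp1-high VE cells also carried at an Epi-like level. IGFBP2 is a secreted protein that binds IGF2 with high affinity and can also contact integrins through its RGD sequence. In VE cells Igfbp2 stood at 62.4 CPM (60.4 to 64.6) in BELAs and 22.0 CPM (20.5 to 23.6) in VE cysts. Epi cells had 265 CPM (262 to 269) in BELAs, 276 CPM (261 to 292) in VE cysts and 262 CPM (257 to 267) in Epi cysts. The level of Epi cells hardly differed between the 3 cultures. The ratio of Epi cells of BELAs to those of Epi cysts was 1.01 (0.989 to 1.04). Within the VE of BELAs, the 72 Sfrp1-high cells had 286 CPM (274 to 299) and the other VE cells 29.2 CPM (27.7 to 30.8), a ratio of 9.80 (9.15 to 10.5). Per cell, Igfbp2 ran from 0 to 1341 CPM with a median of 224 CPM in Sfrp1-high cells, against 0 to 604 CPM with a median of 12.4 CPM in the other VE cells. Epi cells of BELAs ran from 0 to 1592 CPM with a median of 244 CPM. The ranges overlapped, since 4 of 72 Sfrp1-high cells had no Igfbp2 UMI and single cells of the other VE exceeded the Sfrp1-high median.

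Igfbp5 showed another pattern and was the one binding protein whose highest level was that of VE cells of VE cysts. IGFBP5 is secreted, binds extracellular matrix and is cleaved by several extracellular proteases. Igfbp5 reached 43.3 CPM (41.1 to 45.5) in VE cells of VE cysts, against 4.18 CPM (2.48 to 6.61) in Epi cells of the same library. The VE cells of BELAs had 3.93 CPM (3.42 to 4.49), 11.0-fold lower than VE cells of VE cysts (9.55 to 12.8), and the Sfrp1-high cells among them 1.28 CPM (0.585 to 2.43). Epi cells had 7.10 CPM (6.50 to 7.74) in BELAs and 4.01 CPM (3.42 to 4.67) in Epi cysts. In VE cysts the transcript was concentrated in some of the cells. The per-cell level ran from 0 to 936 CPM with a median of 14.2 CPM, 247 of 577 cells had no UMI, and the top 10% of cells held 57.1% of the Igfbp5 UMIs. The summed level of parietal endoderm genes was also lower in the VE of BELAs. The 8 such markers (Sparc, Col4a1, Lama1, Plat, Thbd, Vim, Snai1, Pth1r) summed to 7552 CPM in VE cells of BELAs and 19174 CPM in VE cells of VE cysts, with Thbd under 1 CPM in both. Sparc (5233 and 12104 CPM in the same order) and Col4a1 (1579 and 5180 CPM) made up most of each sum, and Snai1 had the opposite order (13.6 and 7.50 CPM). Their part in the Igfbp5 difference was not tested. The neighbours Igfbp2 and Igfbp5 thus had opposite orders of level in VE cells of BELAs and of VE cysts.

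Igfbp3 and Igfbp4 were low and had opposite lineage preferences in BELAs. Igfbp3, the main IGF carrier of adult serum, had 2.97 CPM (2.53 to 3.47) in VE cells of BELAs and 17.5 CPM (16.6 to 18.5) in Epi cells of BELAs, a 5.89-fold lower level in VE (5.00 to 6.99). In VE cysts it had 5.92 CPM (5.14 to 6.77) in VE and 19.0 CPM (15.1 to 23.6) in Epi cells, and Epi cells of Epi cysts had 12.9 CPM (11.8 to 14.0). Igfbp4, a binding protein known as an inhibitor of IGF action, had 10.8 CPM (9.91 to 11.7) in VE and 3.76 CPM (3.32 to 4.23) in Epi cells of BELAs, a ratio of 2.86 (2.48 to 3.32). Within VE cysts Igfbp4 had nearly the same ratio, 2.62 (1.54 to 4.85), with 8.51 CPM (7.58 to 9.53) in VE cells and 3.25 CPM in Epi cells, where 14 UMIs were counted. Between the separate cultures VE and Epi cells did not differ beyond counting error, since Epi cells of Epi cysts had 8.71 CPM (7.83 to 9.66). The ratio of VE cells of VE cysts to these cells was 0.977 (0.836 to 1.14). Epi cells of BELAs had 2.32-fold less Igfbp4 than Epi cells of Epi cysts (1.97 to 2.72).

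The receptors differed in how evenly they were expressed. Igf1r, the receptor for IGF1 and IGF2, had 14.3 CPM (13.3 to 15.3) in VE cells of BELAs, against 45.1 CPM (42.9 to 47.3) in VE cells of VE cysts. It was 3.16-fold lower in the BELAs (2.90 to 3.45), with the summed parietal endoderm markers also lower there as given above, and their part in this difference was not tested either. Epi cells showed the reverse order, with 44.0 CPM (42.5 to 45.5) in BELAs and 26.2 CPM (24.6 to 27.8) in Epi cysts. Igf1r was thus 3.09-fold lower in VE than in Epi cells of BELAs (2.85 to 3.34), but 1.36-fold higher in VE than in Epi cells of VE cysts (1.14 to 1.62). The lowest level of all groups was that of the Sfrp1-high cells, 5.83 CPM (4.18 to 7.90), against 15.5 CPM (14.4 to 16.7) in the other VE cells of BELAs. Of the Sfrp1-high cells 49 of 72 had no Igf1r UMI and the highest had 35.8 CPM, whereas the other VE cells reached 279 CPM. Insr, the insulin receptor, was the most even member: of its 6 levels the highest was 9.78 CPM (8.78 to 10.9) in VE cells of VE cysts and the lowest 4.83 CPM (4.33 to 5.36) in Epi cells of BELAs. Sfrp1-high and other VE cells had 7.10 CPM (5.27 to 9.37) and 6.61 CPM (5.90 to 7.39) of Insr, with a ratio of 1.07 (0.781 to 1.45). Epi cells of VE cysts and Epi cysts had 5.11 CPM (3.20 to 7.73) and 6.09 CPM (5.36 to 6.90). Most neighbours in this order had overlapping intervals.

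Each of the 3 substrates had its own distribution. Irs1 and Irs2 are widely expressed adaptors that carry most of the insulin and IGF1 signal in adult tissues. Irs2 was higher in Epi cells, with 8.88 CPM (8.10 to 9.71) in VE and 22.1 CPM (21.0 to 23.2) in Epi cells of BELAs. It had 8.48 CPM (7.55 to 9.50) in VE and 18.3 CPM (14.5 to 22.9) in Epi cells of VE cysts, and 15.1 CPM (13.9 to 16.3) in Epi cells of Epi cysts. Irs1 was likewise higher in Epi cells, at a low level, with 0.532 CPM (0.356 to 0.764) in VE and 2.52 CPM (2.17 to 2.92) in Epi cells of BELAs, and at most 2.55 CPM in any group. The VE cells of BELAs and of VE cysts did not differ in Irs2 beyond counting error, with a ratio of 1.05 (0.905 to 1.21).

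Irs4, a substrate with a restricted expression that recruits PI3K, was found mainly in the VE of BELAs. It had 32.9 CPM (31.4 to 34.5) in VE cells of BELAs, against 0.141 CPM (0.0457 to 0.329) in VE cells of VE cysts, where 5 UMIs were counted in all. The ratio was 234 (100.01 to 721), with the width of the interval set by those 5 UMIs. Epi cells had 6.25 CPM (5.69 to 6.86) in BELAs, 3.25 CPM (1.78 to 5.45) in VE cysts and 2.45 CPM (1.99 to 2.98) in Epi cysts. The order of lineages thus differed between BELAs and VE cysts. The Sfrp1-high cells had 168 CPM (159 to 178) and the other VE cells 12.9 CPM (11.9 to 13.9), a ratio of 13.1 (11.9 to 14.4). Only 1 of 72 Sfrp1-high cells lacked an Irs4 UMI, and their median was 170.3 CPM. By contrast, 329 of the 470 other VE cells and 573 of the 577 VE cells of VE cysts had none. Without the Sfrp1-high cells, the remaining VE cells of BELAs still had 91.3 times the Irs4 level of VE cells of VE cysts (38.9 to 282), but only 2.06 times that of Epi cells of BELAs (1.82 to 2.33).

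**Figure D2:**
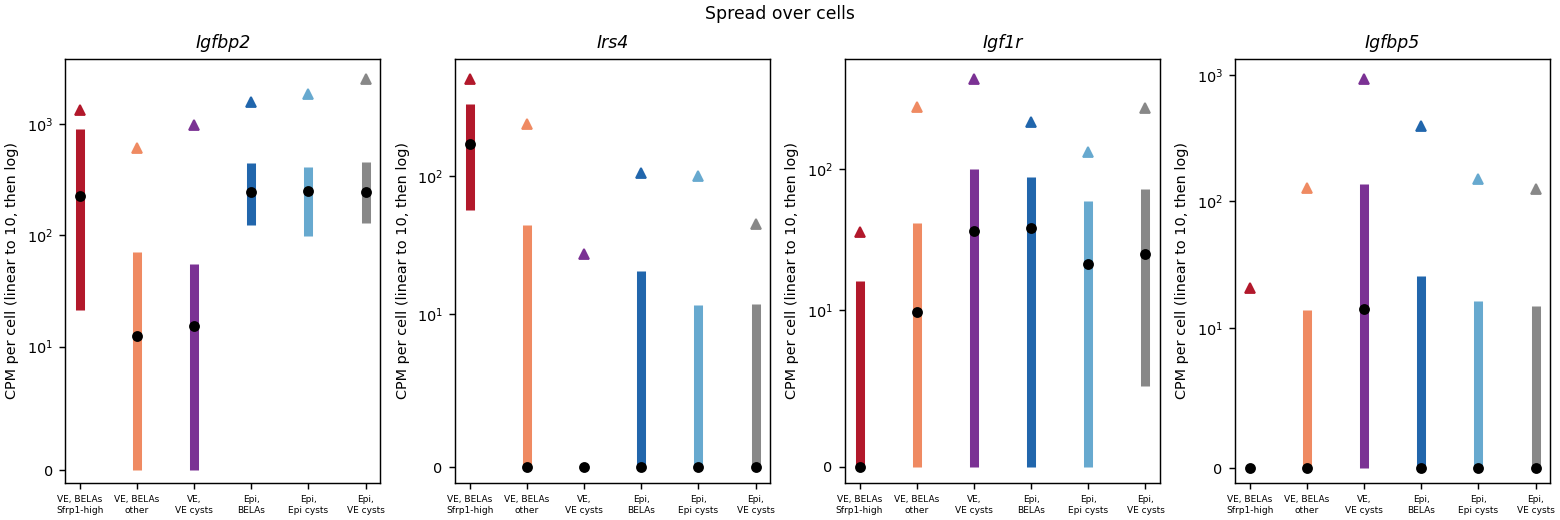
Level per cell (CPM, axis linear to 10 and logarithmic above) of Igfbp2, Irs4, Igf1r and Igfbp5 in 6 groups of cells: bars run from the 10th to the 90th percentile of cells, black points are medians and triangles the highest cell. The median of Irs4 was above 0 in Sfrp1-high cells alone, and that of Igfbp5 in VE cells of VE cysts alone.

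The share of cells with at least 1 UMI was compared after every cell had been thinned to 40000 UMIs, with shallower cells left out. Irs4 was then found in 97.1% of Sfrp1-high cells (66 of 68, exact binomial interval 89.8 to 99.6%), 21.1% of other VE cells of BELAs (17.4 to 25.2%) and 0.634% of VE cells of VE cysts (0.131 to 1.84%). It was found in 20.3% of Epi cells of BELAs (17.6 to 23.3%) and 7.43% of Epi cells of Epi cysts (5.45 to 9.85%). Before thinning these shares were 98.6, 30.0, 0.693, 31.6 and 11.3%. The intervals of other VE cells and Epi cells of BELAs overlapped for Irs4. Igfbp2 was found in 91.2% of Sfrp1-high cells (81.8 to 96.7%), 44.2% of other VE cells (39.5 to 48.9%) and 99.5% of Epi cells of BELAs (98.7 to 99.9%). These shares were 94.4, 65.5 and 99.4% before thinning. For Igf1r the shares were 17.6% of Sfrp1-high cells (9.46 to 28.8%), 40.8% of other VE cells of BELAs (36.2 to 45.5%) and 72.5% of VE cells of VE cysts (68.3 to 76.5%), and 31.9, 62.8 and 81.1% before thinning.

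Such shares can include RNA that came from other cells, and no empty droplets were analysed here. After thinning, Pou5f1, an Epi gene used by the lineage rule, was found in 22.1% of Sfrp1-high cells, 38.8% of other VE cells of BELAs and 27.1% of VE cells of VE cysts, with median depths before thinning of 86641, 90600 and 56914 UMIs. In the other VE cells of BELAs its UMIs were uneven, with none in 217 of 470 cells, a median of 7.20 CPM, a 90th percentile of 75.1 CPM and a highest cell at 550 CPM, and their source was not tested. Gata6, a VE gene, was found in 4.37% of Epi cells of BELAs and 1.52% of Epi cells of Epi cysts, with median depths of 78973 and 60131 UMIs. Among the members Igfbp2 (44.2%) and Igf1r (40.8%) had shares above that of Pou5f1 in the other VE cells of BELAs. Pou5f1 stood at 480 CPM in Epi cells of BELAs, above every member, and most members were far lower there, so its share sets no limit for them and the levels were compared instead. There 5 Epi genes that were at 2% or less of their Epi level in VE cells of VE cysts (Pim2, Pou3f1, Rasgrp2, Otx2, Tdgf1) stood at 5.38 to 10.6% of the Epi level in the other VE cells of BELAs, with a median of 6.78%. Otx2 is also an AVE gene, and without it the range was the same and the median 6.71%. Igfbp2 in these cells was at 11.0% of the Epi level, just above that range, and Igfbp3 at 14.1%, whereas Irs1, Igf1r, Irs2 and Igfbp5 were at 21.7, 35.3, 40.5 and 60.8%. With a limit of 5% in place of 2% the list of Epi genes held 8. In the other VE cells of BELAs these stood at 5.23 to 39.5%, with a median of 6.84%. That wider range included Igfbp2, Igfbp3, Irs1 and Igf1r, but its top was set by Utf1. Utf1 had 243 CPM in the other VE cells and 615 CPM in Epi cells of BELAs. The upper quartile of the range was 8.84%, and each of these members was above it. Insr, Irs4 and Igfbp4 were above the Epi level in the other VE cells, at 137, 206 and 235% of it. In Sfrp1-high cells Igfbp2 was at 108% and Irs4 at 2692% of the level in Epi cells of BELAs.

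The members were next counted in 6 comparisons, in which a gene was called when its ratio reached 2-fold with 5 CPM added to each level. Each count was read against the share of all 12776 genes that were called by the same rule. These ratios, written as log2 values, understate the change of low genes because of the 5 CPM. In VE over Epi cells of BELAs 1 of 9 members was higher, Irs4 (log2 ratio 1.75), against 10.9% of all genes. The 3 lower members were Igfbp2 (-2.00), Igfbp3 (-1.50) and Igf1r (-1.35), against 7.08% of all genes. In VE over Epi cells of VE cysts 1 member was higher, Igfbp5 (2.39), against 16.3% of all genes. The 2 lower members there were Igfbp2 (-3.38) and Igfbp3 (-1.14), against 9.57%. Between the separate cultures, VE cells of VE cysts over Epi cells of Epi cysts, Igfbp5 was higher (2.42) against 15.1% of all genes and Igfbp2 lower (-3.31) against 10.0%. Within both libraries that held VE and Epi cells, Igfbp2 and Igfbp3 were thus lower in VE, while the higher member was another gene in each.

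**Figure D3:**
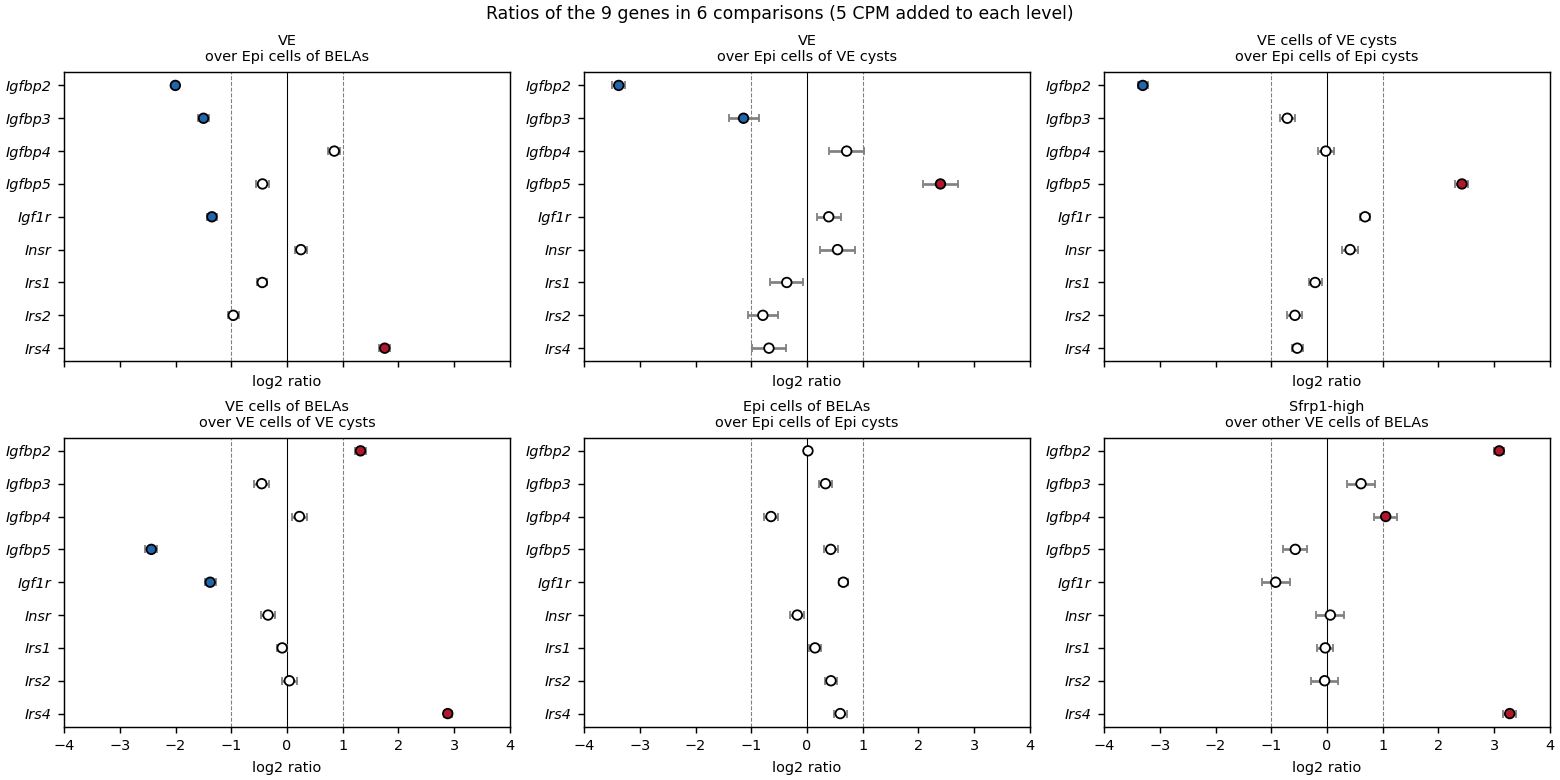
Log2 ratios of the 9 genes in the 6 comparisons, with 5 CPM added to each level, bars for the 95% counting interval, dashed lines at 2-fold, and red or blue points for genes past 2-fold (higher or lower in the group named before "over"). Igfbp2 was lower in VE within BELAs (-2.00) and within VE cysts (-3.38), and no member was past 2-fold between Epi cells of BELAs and of Epi cysts.

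Between cultures, members passed 2-fold in VE cells and none did in Epi cells, a difference that was not itself tested. In VE cells of BELAs over VE cells of VE cysts 2 members were higher, Igfbp2 (log2 ratio 1.32) and Irs4 (2.88), where 1.24% of all genes were. The 2 lower members were Igfbp5 (-2.43) and Igf1r (-1.38), where 2.25% were. Without the Sfrp1-high cells Igfbp2 no longer passed 2-fold in this comparison (0.34), and Irs4 (1.80), Igfbp5 (-2.37) and Igf1r (-1.29) still did. Leaving the same cells out of the comparison of VE with Epi cells of BELAs took Irs4 below 2-fold (0.67) and left Igfbp2 (-2.98), Igfbp3 (-1.59) and Igf1r (-1.26) past it. In Epi cells of BELAs over Epi cells of Epi cysts 0 members were higher, where 0.939% of all genes were, and 0 were lower, where 1.01% were. The member ratios ran from -0.65 for Igfbp4 to 0.65 for Igf1r. The comparisons within BELAs and those between cultures share cells, so their counts are not independent of each other.

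In Sfrp1-high over other VE cells of BELAs 3 of 9 members were higher, Irs4 (log2 ratio 3.28), Igfbp2 (3.09) and Igfbp4 (1.05), against 1.96% of all genes, and 0 were lower, against 1.21%. These genes were chosen on this contrast among others, so nothing is read from the count. Igf1r came close to the threshold on the other side (-0.92). The median log2 ratio of the 9 members was 0.06, against 0.01 over all 12776 genes, and in the lineage comparison of BELAs it was -0.44 against -0.07.

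Across the VE cells of BELAs, the pooled levels of Irs4 and Igfbp2 were higher with each step of Sfrp1, while most other members showed no such order. In the 289 cells with no Sfrp1 UMI, the 143 cells below 50 CPM, the 38 cells from 50 to below 200 CPM and the 72 cells at 200 CPM or more, Irs4 had 4.57, 15.2, 57.7 and 168 CPM. Igfbp2 had 17.7, 40.3, 57.9 and 286 CPM in the same order, with its largest step into the last bin. Igfbp4 had 5.82, 8.75, 29.3 and 23.7 CPM, and Igf1r 17.0, 15.0, 7.84 and 5.83 CPM. Igfbp4 was already high in the third bin, with no further increase into the last, and Igf1r already low. Igfbp3 had 2.44, 2.84, 1.01 and 6.39 CPM, Igfbp5 4.45, 4.35, 3.29 and 1.28 CPM, and Irs1 stayed under 1 CPM in all 4 bins. Insr (6.43 to 7.59 CPM) and Irs2 (6.83 to 9.45 CPM) had overlapping intervals in all 4 bins. Just inside the threshold, the 6 cells from 200 to below 240 CPM had 61.4 CPM of Irs4 and 65.8 CPM of Igfbp2, against 54.3 CPM of both genes in the 9 cells from 160 to below 200 CPM just outside it.

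**Figure D4:**
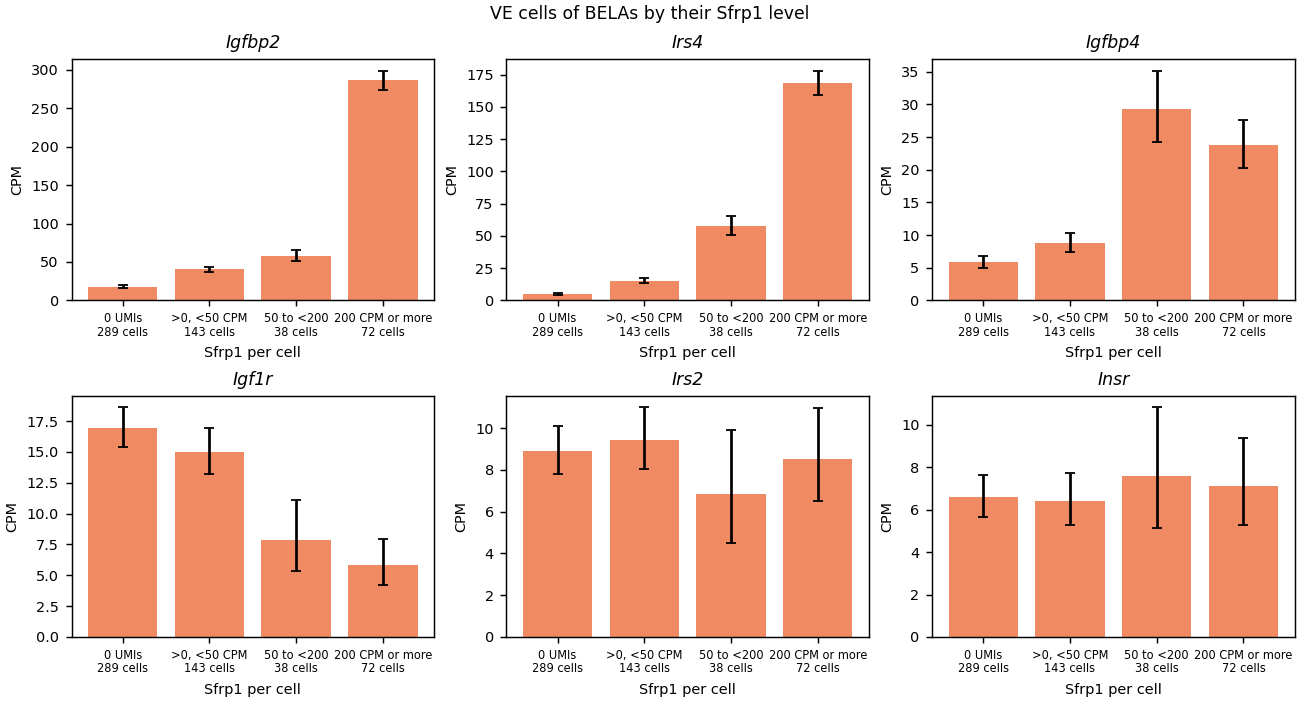
Pooled levels (CPM) of Igfbp2, Irs4, Igfbp4, Igf1r, Irs2 and Insr in VE cells of BELAs by their Sfrp1 level, with exact 95% Poisson intervals and the number of cells under each bar. Igfbp2 and Irs4 were highest at 200 CPM of Sfrp1 or more (286 and 168 CPM), Igf1r was lowest there (5.83 CPM), and Irs2 and Insr were level.

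The same split moved other AVE genes. Cer1, Lefty1, Otx2, Lhx1, Eomes, Gsc, Hhex and Dkk1 summed to 801 CPM in Sfrp1-high cells and 111 CPM in the other VE cells. There were 237 CPM of the LIM homeodomain factor Lhx1, 147 CPM of the T-box factor Eomes and 145 CPM of the homeobox factor Otx2 in Sfrp1-high cells. When the same number of VE cells was taken by that sum without Sfrp1, 60 of the 72 cells were shared (83.3%). Irs4 then had 161 CPM in the cells taken and 14.3 CPM in the remaining VE cells, Igfbp2 271 and 32.1 CPM, Igfbp4 24.6 and 8.76 CPM, and Igf1r 5.64 and 15.5 CPM. This second split was added after the data had been seen. Markers of other cell types did not all move the same way. The 4 Epi markers of the rule summed to 21.6 CPM in Sfrp1-high cells and 41.2 CPM in the other VE cells, and the parietal endoderm markers to 3054 and 8219 CPM. In the same order, 5 trophoblast markers summed to 78.6 and 11.1 CPM with Elf5 under 1 CPM in Sfrp1-high cells. Krt7 (65.8 and 7.71 CPM) made up most of each of these sums. The 5 streak and mesoderm markers summed to 145 and 5.37 CPM with T, Hand1 and Mesp1 under 1 CPM in Sfrp1-high cells. Fgf8 (139 and 4.99 CPM) made up most of each sum there. The 4 Epi markers of the rule are kept low in any VE cell by the rule itself. The 5 further Epi genes summed to 821 CPM in Sfrp1-high cells and 761 CPM in the other VE cells, with Dnmt3b (414 and 323 CPM) and Utf1 (267 and 243 CPM) higher and L1td1 (111 and 158 CPM) lower in Sfrp1-high cells. The part of these lists in the values of the members was not tested.

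From cell to cell, Irs4 and Igfbp2 went with Sfrp1 and with each other in the VE of BELAs. Over the 542 cells the Spearman correlation with Sfrp1 was 0.67 for Irs4, 0.47 for Igfbp2, 0.33 for Igfbp4 and -0.28 for Igf1r. That of Igfbp2 with Irs4 was 0.43 and that of Igf1r with Irs4 was -0.31. These cells came from 1 library, and their median UMI count was 1 for Igfbp2 and Igf1r and 0 for Irs4, Igfbp4 and Sfrp1, so the values describe sparse counts. In Epi cells of BELAs (868 cells) Igfbp2 and Irs4 had a correlation of -0.03. In VE cells of VE cysts (577 cells) it was 0.01, but 573 of these cells had no Irs4 UMI. A correlation over so few UMIs could not show a relation, so it is not set against that in VE cells of BELAs. The 18 VE cells of BELAs with no Sfrp1 UMI but Lhx1 at 50 CPM or more had 10.8 CPM of Irs4 (6.17 to 17.5), against 4.20 CPM (3.43 to 5.08) in the 271 cells with Lhx1 below that, and 18.9 CPM of Igfbp2 (12.6 to 27.3) against 17.6 CPM. So few cells allow no more than the values.

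The other genes of the pathway were read from a list of 58, of which 49 passed the filter on low values. The list is wider than the pathway, since Pdk1 encodes a pyruvate dehydrogenase kinase and Igf2bp2 an mRNA-binding protein. The kinase PDPK1, which acts downstream of PI3K, has its own gene on the list, Pdpk1. It was within 2-fold in VE over Epi cells of BELAs (log2 ratio 0.38). In VE over Epi cells of BELAs 7 were higher (Igf2, Igf2r, Htra1, Grb10, Pik3r1, Akt1, Igf2bp2) and 4 lower (among them Pdk1, Foxo1 and Socs2). These were 12.1% and 6.90% of the list, against 10.9% and 7.08% of all genes, with a median log2 ratio of -0.01 over the list and -0.07 over all genes. In VE over Epi cells of VE cysts 8 were higher and 3 lower, which is 13.8% and 5.17% of the list against 16.3% and 9.57% of all genes. In VE cells of VE cysts over Epi cells of Epi cysts 10 were higher and 4 lower, 17.2% and 6.90% of the list against 15.1% and 10.0%. In this paragraph the shares and median of the list are over all 58 genes, whereas those of all genes are over the 12776 that passed the filter. Over the 49 that passed, the shares of the list would be higher. They are therefore not read as near those of all genes or below them. Within BELAs and within VE cysts, Igf2, Igf2r, Htra1, Pik3r1, Akt1 and Igf2bp2 were higher in VE, and Pdk1 and Socs2 were lower in VE. Outside the lineage comparisons at most 1 gene of the list, or 1.72%, passed 2-fold in either direction, against 0.939 to 2.25% of all genes. Grb10 was higher and Igf1 lower in VE cells of BELAs over VE cells of VE cysts. Grb10 was lower in Epi cells of BELAs over Epi cells of Epi cysts, and Grb10 was higher and Htra1 lower in Sfrp1-high over other VE cells.

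Of the ligands, Igf2 was a VE transcript, with 36.5 CPM (34.9 to 38.1) in VE cells of BELAs and 45.5 CPM (43.3 to 47.7) in VE cells of VE cysts, against 2.87 CPM (2.49 to 3.29) in Epi cells of BELAs and 0.856 CPM (0.596 to 1.19) in Epi cells of Epi cysts. Sfrp1-high cells had 60.7 CPM (55.1 to 66.7) of Igf2 and the other VE cells 32.9 CPM (31.3 to 34.6). Igf1 was found mainly in VE cysts, with 0.587 CPM (0.401 to 0.829) in VE cells of BELAs against 7.24 CPM (6.38 to 8.18) in VE cells of VE cysts. Igf1 and Igfbp5 were therefore both lower in the VE of BELAs than in that of VE cysts, by 12.3-fold and 11.0-fold. Ins1 had 0 UMIs in every group, which by the limit of 3 counts allows up to 0.0550 CPM in VE cells of BELAs (exact 95% upper limit 0.0677 CPM), and Ins2 had 2 UMIs in all.

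Among the regulators, Grb10 showed the largest differences between groups of VE cells. GRB10 is an adaptor that binds the insulin and IGF1 receptors and restrains their signal, and its gene is imprinted. Grb10 had 458 CPM (443 to 474) in Sfrp1-high cells and 29.7 CPM (28.2 to 31.3) in the other VE cells, and 9.78 CPM (8.78 to 10.9) in VE cells of VE cysts. In Epi cells it had 17.3 CPM (16.3 to 18.3) in BELAs, 43.7 CPM (37.6 to 50.4) in VE cysts and 65.0 CPM (62.5 to 67.5) in Epi cysts. Grb10 was thus past 2-fold in all 6 comparisons, higher in VE within BELAs (log2 ratio 2.01) and lower in VE within VE cysts (-1.72), and it was the only one of the 58 genes past 2-fold between Epi cells of BELAs and of Epi cysts (log2 ratio -1.65). Of the 4636 Grb10 UMIs in VE cells of BELAs, 3226 were in the 72 Sfrp1-high cells. Without those cells Grb10 no longer passed 2-fold in VE over Epi cells of BELAs (0.64), the only one of the list to be lost there, and still did in VE cells of BELAs over VE cells of VE cysts (1.23). The order of Grb10 over VE cells, with Sfrp1-high cells above the other VE cells and both above VE cysts, was that of Irs4.

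Htra1, a secreted serine protease that cleaves IGF binding proteins, had 125 CPM (122 to 128) in VE cells of BELAs and 81.7 CPM (78.8 to 84.7) in VE cells of VE cysts, against 3.68 CPM in Epi cells of BELAs and 0.587 CPM in Epi cells of Epi cysts. In contrast to Igfbp2 and Irs4, it was lower in Sfrp1-high cells, with 22.3 CPM (19.0 to 26.1) against 141 CPM (137 to 144) in the other VE cells. Igf2r, the receptor that carries IGF2 to the lysosome, had 87.0 CPM in VE cells of BELAs and 158 CPM in VE cells of VE cysts, against 19.4 CPM in Epi cells of BELAs and 20.9 CPM in Epi cells of Epi cysts. It did not differ between Sfrp1-high cells (87.5 CPM, 80.8 to 94.7) and other VE cells (86.9 CPM, 84.3 to 89.6) beyond counting error. Downstream of the receptors, the PI3K regulatory subunit gene Pik3r1 and the kinase gene Akt1 had 49.9 and 62.1 CPM in VE cells of VE cysts against 6.04 and 20.2 CPM in Epi cells of VE cysts. Socs2, a suppressor of cytokine and growth hormone signaling, had 8.57 CPM in VE and 79.1 CPM in Epi cells of BELAs.

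**Figure D5:**
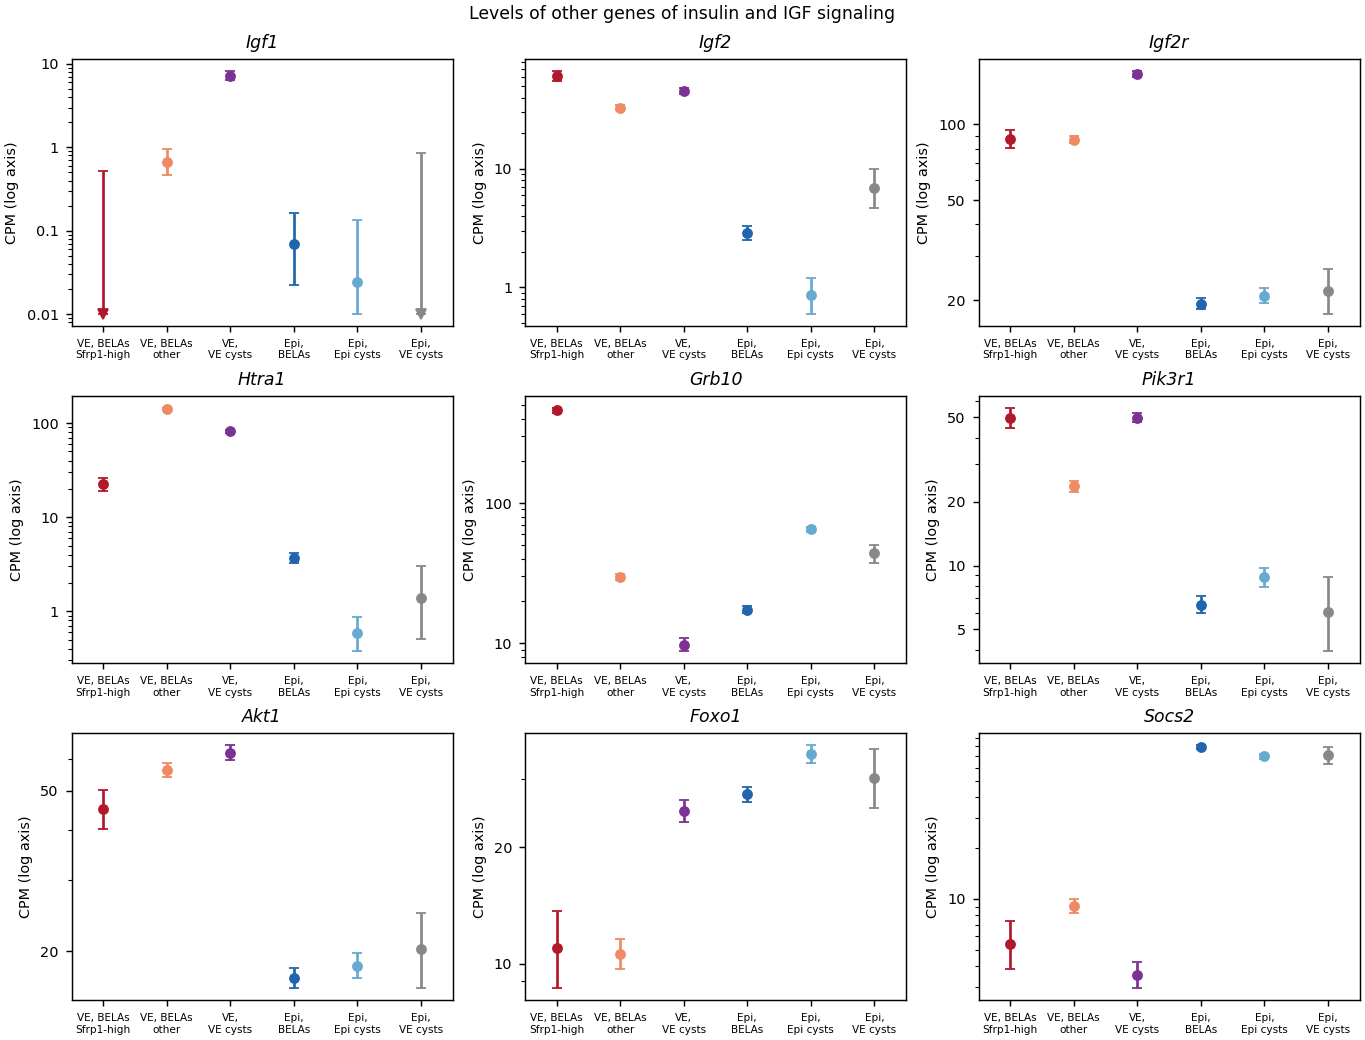
Levels (CPM, log axis, a separate scale for each gene) of 9 further genes of the pathway in 6 groups of cells, with exact 95% Poisson intervals, where a triangle marks 0 UMIs and values below 0.01 are drawn at 0.01. Grb10 was highest in Sfrp1-high cells (458 CPM), Igf1 was found mainly in VE cells of VE cysts (7.24 CPM), and Igf2, Igf2r, Htra1, Pik3r1 and Akt1 were higher in VE than in Epi cells.

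The genes whose levels over the 6 groups were most like those of a member were taken from 9627 genes by the root mean square distance between centred log2 levels. For Irs4 the nearest was Gpc4, a glypican gene, at a distance of 0.19, with 265 CPM in Sfrp1-high cells, 17.3 CPM in other VE cells and 1.75 CPM in VE cells of VE cysts. The next were Dapk2 (0.57) and Col23a1 (0.58). For Igfbp2 they were Mest (0.39), Eras (0.41) and Pcsk1n (0.56), each higher in Sfrp1-high cells and in Epi cells than in the remaining VE. For Igfbp5 they were Efcab2 (0.26), Col27a1 (0.31) and Clmp (0.32), and for Igf1r Notch1 (0.28), Pdpn (0.30) and Zfp644 (0.31). Igfbp3 was nearest to Ccdc88c (0.04), Igfbp4 to Naxd (0.17) and Irs2 to Nek1 (0.06), while Insr and Irs1 stayed under 10 CPM in every group and were not compared. A small distance over 6 groups describes these libraries and was not tested.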

How the data were processed

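The deposited files hold UMI counts per gene and cell barcode for 3 libraries (BELAs, Epi cysts, VE cysts), with barcode and gene lists, made by the authors with 10x 3′ v3.1 chemistry and, per the labels and the submitters' processing notes, Cell Ranger 4.0.0 and mm10. All columns were matched to a library (0 unmatched). The values were used as raw counts, with no normalization before deposit.

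Levels were pooled UMIs as CPM with exact 95% Poisson intervals, ratios had exact conditional binomial intervals and shares Clopper-Pearson intervals. Log2 ratios with 5 CPM added had approximate 95% intervals from the delta method. These cover counting error only, and PCR, culture and pooling are not covered. Shares were taken after thinning to 40000 UMIs. Genes with a mean of at least 1 CPM over 5 groups (12776) formed the background of the 6 comparisons, with 5 CPM added and a 2-fold threshold. A count of 0 was given an upper limit of 3 counts. No doublet caller was run, and alternatives left out cells with mixed markers and the deepest 5% of each library. Fold changes and intervals were tested on counts simulated with Poisson error. The intervals assume that same error, so this cannot show how they hold under the spread between cells. Python 3.11.15, numpy 2.4.6, scipy 1.17.1 and pandas 2.3.3 were used, with GENCODE and RefSeq annotations of GRCm38.

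The members, marker lists and pathway list were chosen with earlier results of these data known. All 9 members are named, as are the pathway genes past 2-fold, except 1 that is not reported here, and the 3 genes nearest to a member with a level of at least 10 CPM in some group. Pathway genes within 2-fold, and the values of some of those past it, were summarised by their counts.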

Additional observations from a re-analysis of the deposited data

Results flagged for a closer look

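In 7 cases a member had opposite directions under the same contrast in separate settings, with counting intervals on both sides that did not reach a ratio of 1. None of these differences was tested, since each culture was 1 library. Igfbp5 had a log2 ratio of VE over Epi cells of -0.44 in BELAs and 2.39 in VE cysts. Igf1r had -1.35 in BELAs and 0.39 in VE cysts for the same contrast, and Irs4 had 1.75 in BELAs and -0.68 in VE cysts. For BELAs over the cysts of the same lineage, Igfbp5 had -2.43 in VE cells and 0.43 in Epi cells. Igf1r had -1.38 in VE cells and 0.65 in Epi cells for that contrast. Igfbp3 had -0.45 in VE cells and 0.33 in Epi cells, and Igfbp4 had 0.22 in VE cells and -0.65 in Epi cells, with neither value past 2-fold for either gene. Without the Sfrp1-high cells the ratio of Igfbp4 in VE cells of BELAs over VE cells of VE cysts was 1.04 (0.894 to 1.21). The Epi side of VE cysts rests on 48 cells.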

How the results depend on the processing

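No paired analysis was possible because each culture was 1 library, and no library could be left out of a comparison for the same reason. Members were counted again under 13 alternatives, 9 of them in all 6 comparisons. The amount added to each level was the choice that moved counts. With 1 CPM added in place of 5, the members past 2-fold numbered 7 in place of 4 in VE over Epi cells of BELAs, 6 in place of 3 in VE over Epi cells of VE cysts, 4 in place of 2 in VE cells of VE cysts over Epi cells of Epi cysts, 2 in place of 0 in Epi cells of BELAs over Epi cells of Epi cysts (Irs4 higher, Igfbp4 lower) and 6 in place of 3 in Sfrp1-high over other VE cells. With 20 CPM added they numbered 2 in place of 4 in VE over Epi cells of BELAs and 2 in place of 4 in VE cells of BELAs over VE cells of VE cysts. The other 52 of 59 counts stayed within 1.5 times. Of 477 member ratios, 346 stayed within the counting interval of the value reported and 131 moved beyond it, and 5 changed sign, all of them with a log2 ratio of at most 0.06 in size as reported. Taking the totals without mitochondrial and ribosomal protein genes shifted the median of all genes by at most 0.09 in size (-0.09 in VE cells of VE cysts over Epi cells of Epi cysts). The alternatives on the AVE sum, on Lhx1, without the Sfrp1-high cells and without Otx2 in the Epi reference were chosen after seeing the data.

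Low members limit what these libraries show: Irs1 had 3 UMIs in Sfrp1-high cells, where 3 counts correspond to 0.426 CPM, and Epi cells of VE cysts had 14 UMIs of Irs4 and of Igfbp4. Library and culture cannot be told apart, VE cysts differed from BELAs in the length of doxycycline, FGF4 and heparin as well as in the absence of an Epi core, and cells of 1 library are not replicates.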
